A study of Mus musculus with 6 samples.

Results

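Transcript levels of 10 circadian clock genes were described in the soleus of mice with a single intact copy of *Mustn1*. The genes were taken by symbol from the deposited normalized table, which holds 16180 distinct genes, and joined by Ensembl identifier to the raw counts of 51912 genes. All 10 were found and all 10 passed the filter on low counts, among 14696 genes tested. They are the activators *Clock* and *Npas2*, the repressors *Per1*, *Per2*, *Per3*, *Cry1* and *Cry2*, the nuclear receptors *Nr1d1* and *Nr1d2*, and the output factor *Dbp*. None of the 10 differed between genotypes past the threshold. Several of them were instead spread widely among mice of the same genotype, and WT3 held the highest level of 6 of them and the lowest level of 3.

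The mammalian clock is a loop of transcription factors that runs in nearly every cell, muscle fibers included. CLOCK or NPAS2 pairs with BMAL1, the product of *Arntl*, and the pair binds E-boxes and activates the *Per* and *Cry* genes, the *Nr1d* genes and *Dbp*. PER and CRY proteins feed back to repress that pair, whereas the NR1D receptors (REV-ERBs) repress *Arntl*, *Clock* and *Npas2* through elements that ROR receptors activate. Transcripts of *Dbp*, the *Per* genes and the *Nr1d* genes peak at other hours of the day than those of *Clock*, *Npas2* and *Arntl*, so a level read at a single time depends on when the muscle was taken.

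The study asked how partial loss of *Mustn1*, which encodes a secreted microprotein, alters muscle gene expression. Soleus, a postural muscle of the calf with many slow fibers, was taken from 3 heterozygous (HET) mice and from 3 wild-type (WT) littermates, all of the strain C57BL6/N and 8 weeks old. The HET mice carried 1 KO-first allele in the whole body, a lacZ gene trap with a neomycin cassette that captures the transcript from exon 1, beside 1 intact allele, and the WT mice carried no targeted allele. Mice were kept on a light/dark cycle, and the hour at which each soleus was collected is not given in the sources used here, so each mouse is given singly, as HET1 to HET3 and WT1 to WT3.

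Libraries held between 26790075 (HET2) and 50368796 (WT3) reads on genes. Levels are normalized counts (CPM), which are reads on a gene relative to the library total after scaling with TMM factors. *Mustn1* was at 12.6, 16.8 and 13.1 CPM in the HET mice and at 23.1, 29.0 and 30.5 CPM in the WT mice, a log2 fold change of -0.96 (SE 0.15; adjusted p = 0.0452, edgeR quasi-likelihood test). The labels give male mice, yet *Xist* was at 144 to 224 CPM in all 6 libraries and 4 Y-linked genes were each below 0.4 CPM, so all 6 libraries went against that label. Slow fiber markers were abundant in every mouse, with a summed level of 39568 to 45124 CPM over 8 genes.

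Per length of exon, the receptors were the most abundant members. *Nr1d1* stood at a mean of 44.1 RPKM (CPM per kilobase of exon) over the 6 mice and *Nr1d2* at 19.5 RPKM, and neither range overlapped that of the next gene in the order, although *Dbp* and *Per1* in WT3 (18.4 and 15.4 RPKM) reached into the range of *Nr1d2*. *Cry1* (8.07 RPKM), *Dbp* (7.47 RPKM), *Per1* (6.69 RPKM) and *Clock* (6.44 RPKM) followed with ranges that overlapped their neighbors. *Cry2*, at 4.30 RPKM, lay below the range of *Clock* and above that of *Per3*, at 1.17 RPKM. *Npas2* (1.10 RPKM) overlapped *Per3*, and *Per2* came last at 0.309 RPKM, with a range that overlapped that of *Npas2*.

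**Figure D1:**
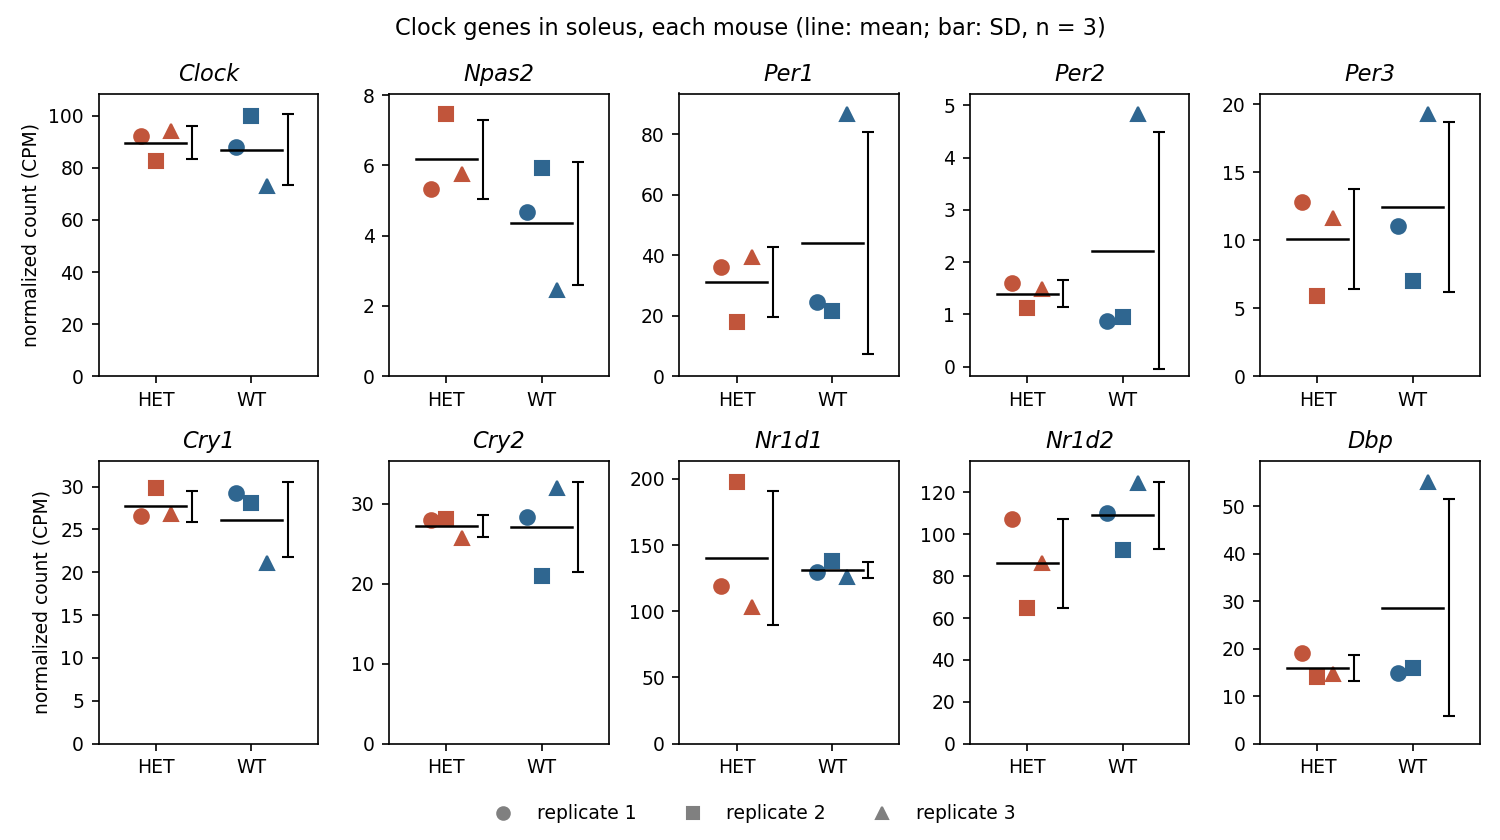
Normalized counts (CPM, linear axes with 0 shown) of the 10 clock genes in each of 3 HET and 3 WT mice; symbols give the replicate number, lines the mean and bars the SD. The triangle of WT3 stands far above the other 5 mice for *Per1*, *Per2* and *Dbp* and lowest for *Clock*, *Npas2* and *Cry1*.

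The activators showed the opposite side of this pattern. *Clock* lies on the minus strand of chromosome 5 (positions 76209868 to 76304792 of GRCm38) and encodes the DNA-binding histone acetyltransferase that partners BMAL1. It was at 92.3, 82.6 and 94.3 CPM in HET1 to HET3 and at 88.2, 99.9 and 73.0 CPM in WT1 to WT3. WT mice thus held both the highest and the lowest value. The log2 fold change, HET over WT, was 0.05 (SE 0.12, 95% interval -0.21 to 0.30, adjusted p = 0.969), which is within the spread between mice.

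*Npas2*, a paralog of *Clock* that also pairs with BMAL1, lies on the plus strand of chromosome 1 (39193731 to 39363236). HET1 to HET3 had 5.32, 7.45 and 5.77 CPM and WT1 to WT3 had 4.68, 5.92 and 2.45 CPM. The genotypes overlapped only through WT2, which lay above HET1 and HET3. Mean levels were 6.18 ± 1.13 CPM in HET and 4.35 ± 1.76 CPM in WT (SD, n = 3), a log2 fold change of 0.52 with an interval of -0.13 to 1.17 and an adjusted p of 0.785. Without WT3, whose level was 0.524 of the next lowest, the log2 fold change was 0.21 (interval -0.24 to 0.67).

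Among the repressors, the *Per* genes varied most between mice. *Per1*, on the plus strand of chromosome 11 (69095217 to 69109960), encodes a PERIOD protein and is induced rapidly by glucocorticoids and other signals. It was at 36.2, 17.9 and 39.5 CPM in HET1 to HET3 and at 24.5, 21.5 and 86.6 CPM in WT1 to WT3. WT3 lay 2.19-fold above the next mouse, HET3, while WT1 and WT2 lay between HET2 and HET1. The log2 fold change was -0.51 (SE 0.70, interval -2.35 to 1.34, adjusted p = 0.936), and without WT3 it was 0.45 (interval -0.37 to 1.26).

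*Per2*, on the minus strand of chromosome 1 (91415982 to 91459324), rested on few reads, with 60, 30 and 65 in the HET mice and 26, 27 and 239 in the WT mice. These were 1.60, 1.12 and 1.48 CPM in HET1 to HET3 and 0.870, 0.958 and 4.84 CPM in WT1 to WT3. WT3 stood 3.02-fold above the next mouse, and the other WT mice stood below all HET mice. The log2 fold change of -0.71 (SE 0.66, interval -2.27 to 0.85, adjusted p = 0.890) became 0.63 (interval -0.09 to 1.35) without WT3. Neither value passed the threshold.

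*Per3*, on the minus strand of chromosome 4 (151003652 to 151044665), was at 12.8, 5.92 and 11.6 CPM in HET1 to HET3. In WT1 to WT3 it was at 11.04, 7.02 and 19.3 CPM. WT3 was again highest, and the replicates numbered 2 were lowest in both genotypes. *Per3* had a log2 fold change of -0.30 (SE 0.43, interval -1.36 to 0.75, adjusted p = 0.937), against 0.17 without WT3 (interval -0.61 to 0.95).

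The cryptochromes, which join PER proteins in the repressing complex, were steadier. *Cry1*, on the minus strand of chromosome 10 (85131700 to 85185064), was at 26.6, 29.8 and 26.8 CPM in the HET mice and at 29.2, 28.1 and 21.1 CPM in the WT mice. WT3 was lowest and the other 5 mice lay close together. *Cry1* had a log2 fold change of 0.09 (SE 0.13, interval -0.20 to 0.37, adjusted p = 0.941).

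*Cry2*, on the minus strand of chromosome 2 (92403646 to 92434043), was at 28.0, 28.1 and 25.7 CPM in HET1 to HET3 and at 28.4, 20.9 and 32.0 CPM in WT1 to WT3. Its HET values lay within the WT range. The mean levels, 27.3 ± 1.38 CPM in HET and 27.1 ± 5.64 CPM in WT (SD, n = 3), were nearly equal, and the interval of the log2 fold change ran from -0.31 to 0.32 (adjusted p = 0.998). In the reference annotation, 295 of its 6320 exon bases overlap exons of a transcript on the opposite strand, and the counting was strand-specific.

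The nuclear receptors did not follow each other. *Nr1d1* (REV-ERB alpha), on the minus strand of chromosome 11 (98767932 to 98775333), was at 119, 198 and 104 CPM in HET1 to HET3. In WT1 to WT3 it was at 129.7, 138 and 126 CPM. The WT mice were alike, whereas HET2 stood 1.44-fold above every other mouse and the remaining HET mice lay below all WT mice. Between genotypes its log2 fold change was 0.09 (SE 0.22, interval -0.42 to 0.61, adjusted p = 0.967), and without HET2 it was -0.22. Of its 3077 exon bases, 263 overlap exons of *Thra*, the thyroid hormone receptor alpha gene on the opposite strand.

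*Nr1d2* (REV-ERB beta), on the minus strand of chromosome 14 (18204054 to 18239127), had the smallest unadjusted p of the 10 members. It was at 107, 64.9 and 86.4 CPM in HET1 to HET3 and at 110.3, 92.6 and 124 CPM in WT1 to WT3. Only HET1 lay above a WT mouse, WT2. The means were 86.2 ± 21.2 CPM in HET and 109 ± 15.9 CPM in WT (SD, n = 3). This gave a log2 fold change of -0.34 (SE 0.18, interval -0.74 to 0.06, adjusted p = 0.766, edgeR), and it stayed below 0, between -0.53 and -0.16, with each mouse left out in turn.

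*Dbp*, on the plus strand of chromosome 7 (45705088 to 45710203), encodes a PAR bZIP activator that binds D-boxes and has among the widest daily rhythms known in tissues. It was at 19.2, 14.1 and 14.8 CPM in HET1 to HET3 and at 15.0, 16.0 and 55.2 CPM in WT1 to WT3. The 5 mice other than WT3 fell within a narrow band, and WT3 stood 2.88-fold above the highest of them. The log2 fold change was -0.85 (SE 0.60, interval -2.41 to 0.70, adjusted p = 0.862), and without WT3 it was 0.05 (interval -0.30 to 0.40). Of its 2993 exon bases, 539 overlap exons of *Sphk2* on the opposite strand.

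**Figure D2:**
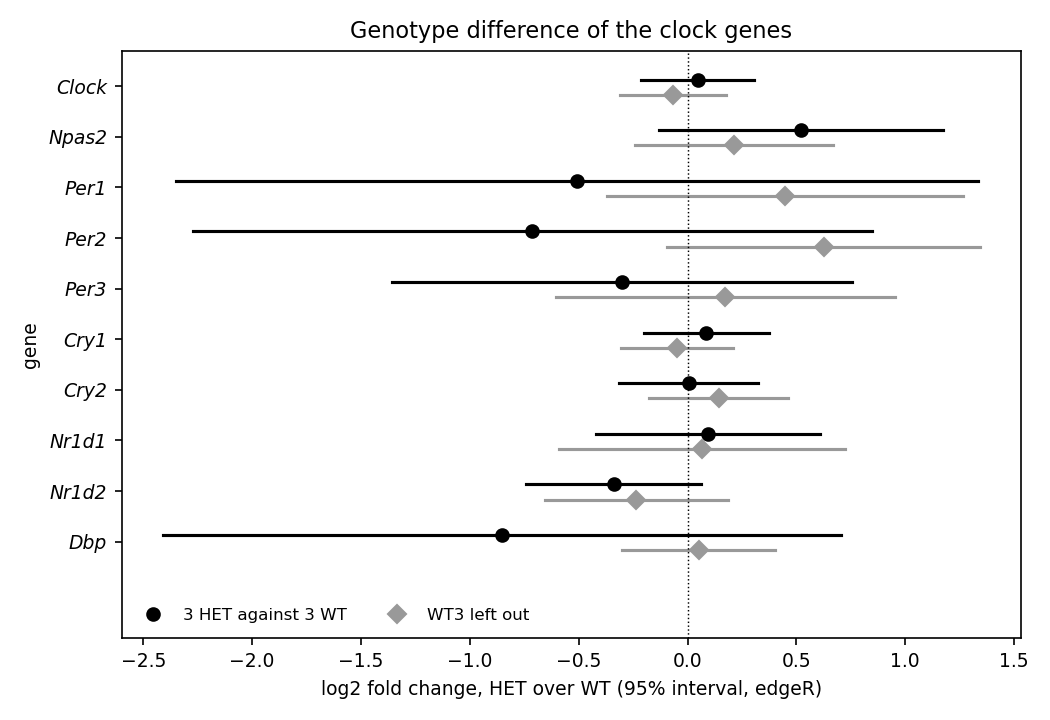
Log2 fold change of each clock gene, HET over WT (horizontal axis, points with 95% intervals from edgeR), with all 6 mice in black and with WT3 left out in grey. Every interval spans 0; *Per1*, *Per2*, *Per3* and *Dbp* lie below 0 with WT3 and above 0 without it.

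In all, 5 members had a log2 fold change above 0 and 5 below 0, with a median of -0.15 against -0.02 over all genes tested, of which 45.6% lay above 0. Past the threshold, 0 members were higher in HET, where 0.143% of all genes tested were, and 0 members were lower, where 0.00680% were. Adjusted p-values of the members ran from 0.766 to 0.998 (edgeR). At an unadjusted p under 0.05 there were 0 members, against 7.76% of all genes tested, and DESeq2 and limma-voom also called 0 members. No member separated the genotypes completely, which 13.6% of all genes tested did. With 3 mice against 3, the intervals of *Clock*, *Cry1* and *Cry2* allow log2 differences of at most 0.37 in either direction, whereas those of *Per1*, *Per2* and *Dbp* allow log2 differences beyond 2.

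Leaving out WT3 turned the direction of *Clock*, *Per1*, *Per2*, *Per3*, *Cry1* and *Dbp*, and leaving out HET2 turned that of *Nr1d1*. *Cry2*, which lay at 0, turned without HET1, HET2 or WT2. *Npas2* and *Nr1d2* kept their direction with each mouse left out.

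Most members varied widely within a genotype. Taken as the SD of log2 CPM about the genotype means, it was 0.97 for *Per2*, 0.90 for *Per1*, 0.77 for *Dbp*, 0.67 for *Per3* and 0.49 for *Npas2*, against a median of 0.18 over all genes tested. Only 1%, 1.43%, 2.59%, 4.14% and 9.61% of genes tested, in that order, had a larger SD. Among the 1000 genes nearest in mean level, 0.1% exceeded *Per1* and 0.1% exceeded *Dbp*. *Nr1d1* (SD 0.35), *Nr1d2* (0.30), *Cry2* (0.23) and *Cry1* (0.19) also lay above the median of all genes, and *Clock* (0.18) lay just below it. Against the 1000 genes nearest in level these members stood higher. There, 2.1% exceeded *Nr1d1*, 4% *Nr1d2*, 12.7% *Cry2*, 22.7% *Cry1* and 20.3% *Clock*. For *Per2*, *Per3* and *Npas2* the shares were 1.1%, 0.7% and 4.1%.

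For some members this spread was unequal between the genotypes through a single mouse. In log2 units the SD of *Dbp* was 0.24 among HET mice and 1.06 among WT mice, and that of *Per2* was 0.26 among HET and 1.35 among WT mice. *Nr1d1* showed the reverse, with 0.49 among HET and 0.06 among WT mice. The larger SDs of *Dbp* and *Per2* came from WT3, and that of *Nr1d1* from HET2. For *Per3* both were similar, at 0.60 in HET and 0.73 in WT mice.

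**Figure D3:**
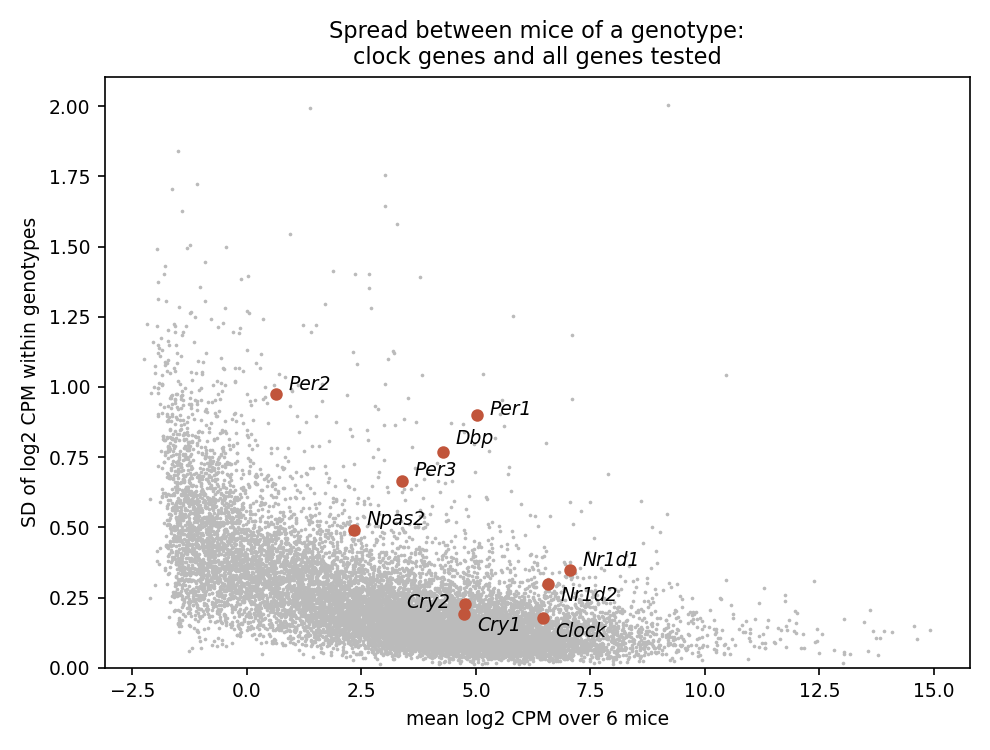
SD of log2 CPM about the genotype means (vertical axis) against mean log2 CPM over the 6 mice (horizontal axis) for all genes tested, in grey, and the 10 clock genes, in red. *Per1*, *Dbp* and *Per3* lie above nearly all genes of similar level, while *Clock* and *Cry1* lie inside the cloud.

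WT3 was at an extreme for 9 of the 10 members, as the highest mouse for *Per1*, *Per2*, *Per3*, *Cry2*, *Nr1d2* and *Dbp* and the lowest for *Clock*, *Npas2* and *Cry1*. Over all genes tested WT3 was at an extreme for 25.4%. HET2 was at an extreme for 7 members, the highest for *Npas2*, *Cry1* and *Nr1d1* and the lowest for *Per1*, *Per3*, *Nr1d2* and *Dbp*, but HET2 was also at an extreme for 47.4% of all genes tested. HET1 was at an extreme for 0 members, against 22.2% of all genes tested.

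Genes known to peak between the middle of the light phase and the early night were set against those known to peak around dawn. After each gene was centered on its mean over the 6 mice, the mean log2 level of *Dbp*, *Per1*, *Per2*, *Per3*, *Nr1d1* and *Nr1d2* less that of *Clock* and *Npas2* was 0.01 in HET1, -0.66 in HET2 and -0.23 in HET3. It was -0.17 in WT1, -0.56 in WT2 and 1.60 in WT3. The 5 mice other than WT3 thus ran from -0.66 to 0.01, a range in which both genotypes overlapped, and WT3 lay far above it. *Cry1* and *Cry2* were left out of this difference. *Nr1d1* did not share the rise in WT3, where its centered level was -0.07.

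Across the whole transcriptome, 9 genes (0.0612% of those tested) were more than 2-fold higher in WT3 than in every other mouse, and 3 of them were *Per2*, *Dbp* and *Per1*. This threshold and the genes it names were chosen after the values were seen. The largest excess was that of *Ciart*, a repressor of the CLOCK and BMAL1 pair, at 2.51 CPM in WT3 against 0.461 to 0.752 CPM in the other mice (3.34-fold over the next). *Fam107a*, *Slc10a6*, *Map3k6*, *Arrdc2* and *Gm9211* made up the rest. By the same measure HET3 had 29 such genes, HET2 had 16, HET1 5, WT2 4 and WT1 1, with 0 members among any of them.

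The other components of the loop were followed as a list of 20 genes, of which 18 were tested and *Rorb* and *Fbxl21* were too low. None passed the threshold in either direction (edgeR), 5 lay above 0 and 13 below 0, and the median log2 fold change was -0.07. WT3 was the highest mouse for 10 of them, namely *Bhlhe40*, *Bhlhe41*, *Ciart*, *Tef*, *Hlf*, *Csnk1d*, *Csnk1e*, *Btrc*, *Fbxw11* and *Usp2*, and the lowest for *Arntl* and *Timeless*, whereas 13.4% of all genes tested were highest and 12.1% lowest in WT3. The lead of WT3 over the next mouse was small for *Fbxw11* (1.01-fold), *Csnk1d* (1.03-fold) and *Btrc* (1.07-fold). It was largest for *Ciart* (3.34-fold), followed by *Usp2* (1.47-fold).

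*Arntl*, which encodes the BMAL1 partner of CLOCK and NPAS2, was at 50.3, 58.8 and 54.5 CPM in HET1 to HET3 and at 65.0, 56.6 and 36.9 CPM in WT1 to WT3. It was lowest in WT3, as its partners were. *Tef* and *Hlf*, the PAR bZIP relatives of *Dbp*, stood less far above the rest in WT3, at 169 CPM against 99.6 to 131 CPM for *Tef* and at 7.90 CPM against 5.04 to 5.93 CPM for *Hlf*. *Nfil3*, which competes with them for D-boxes, was at 29.5, 44.2 and 53.6 CPM in the HET mice and at 44.8, 33.2 and 31.8 CPM in the WT mice, with no such peak. *Usp2*, a deubiquitinase gene with a daily rhythm, was at 236 CPM in WT3 against 122.7 to 161 CPM in the other mice.

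For *Rora* and *Bhlhe41*, every HET mouse lay below every WT mouse. *Rora*, the receptor gene whose product activates *Arntl*, was at 75.8, 67.8 and 76.5 CPM in HET1 to HET3 and at 97.1, 83.2 and 91.0 CPM in WT1 to WT3, a log2 fold change of -0.30 (SE 0.09, adjusted p = 0.328). For *Bhlhe41*, a further repressor, the log2 fold change was -0.33 (adjusted p = 0.595). The share without overlap over all genes tested was 13.6%, and neither gene passed the threshold.

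**Figure D4:**
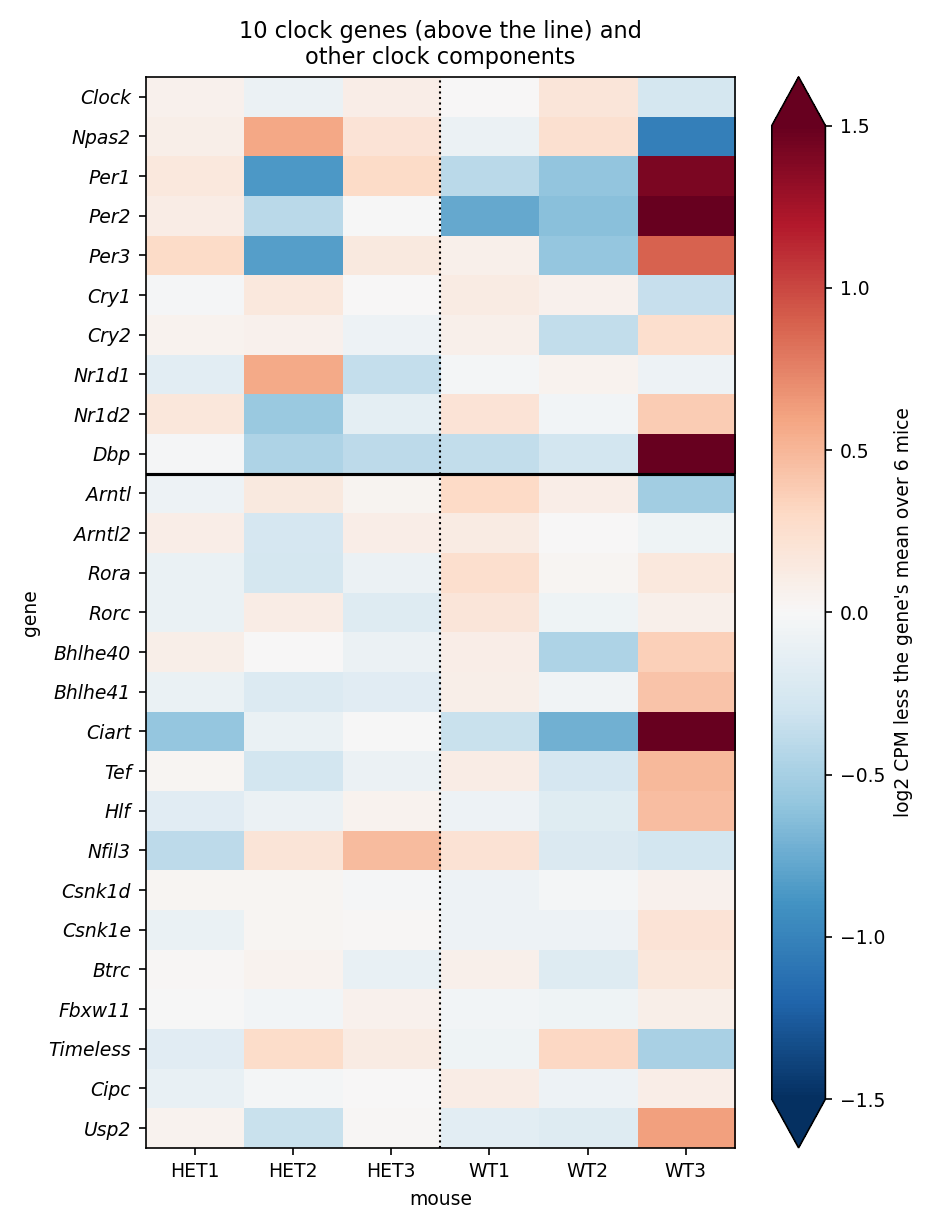
Log2 CPM of the 10 clock genes and of other clock components (rows) in the 6 mice (columns) less each gene's mean over the mice, with colors capped at 1.5 and -1.5. The column of WT3 is the only one with deep red for *Per1*, *Per2*, *Dbp* and *Ciart* and with blue for *Npas2*, *Clock* and *Arntl* together.

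Promoter windows from RefSeq (GRCm38.p6), each 250 bases before and 50 bases after a transcript start, were found for 9 of the 10 members, all but *Per2*. These 9 members had 12 windows, so the members named and the shares of windows below are in unlike units. An E-box, CACGTG, the site of the CLOCK and BMAL1 pair, was present in the windows of *Per1* and *Cry1* and in 7.15% of the 32851 windows. *Per1* was among the members highest in WT3, and *Cry1* among those lowest there. A D-box, TTATGTAA or TTACGTAA on either strand, the kind of site bound by DBP, was present in the window of *Per3* and in 1.06% of windows. The windows of these 3 members are shown, with that of *Ciart* because it had the largest excess in WT3 and held 3 E-boxes. They run 5′ to 3′ along the gene up to the transcript start, with the matches in capitals. For *Per1* and *Cry1* that transcript start lies inside the span of the gene given above.
Per1 (chr11:69098699-69098948, plus strand, E-box at 166 to 161 bases before the start): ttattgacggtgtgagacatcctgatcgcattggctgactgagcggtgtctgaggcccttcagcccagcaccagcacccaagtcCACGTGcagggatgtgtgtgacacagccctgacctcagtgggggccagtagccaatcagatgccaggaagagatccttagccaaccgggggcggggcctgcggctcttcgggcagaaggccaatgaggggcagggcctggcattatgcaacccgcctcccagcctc
Cry1 (chr10:85185055-85185304, minus strand, E-box at 60 to 55 bases before the start): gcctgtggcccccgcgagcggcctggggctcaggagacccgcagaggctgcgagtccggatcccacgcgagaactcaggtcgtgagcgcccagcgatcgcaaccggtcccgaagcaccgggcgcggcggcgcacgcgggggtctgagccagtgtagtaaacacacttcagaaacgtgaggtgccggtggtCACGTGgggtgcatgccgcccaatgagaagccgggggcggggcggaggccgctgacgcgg
Per3 (chr4:151044666-151044915, minus strand, D-boxes at 205 to 198 and 158 to 151 bases before the start): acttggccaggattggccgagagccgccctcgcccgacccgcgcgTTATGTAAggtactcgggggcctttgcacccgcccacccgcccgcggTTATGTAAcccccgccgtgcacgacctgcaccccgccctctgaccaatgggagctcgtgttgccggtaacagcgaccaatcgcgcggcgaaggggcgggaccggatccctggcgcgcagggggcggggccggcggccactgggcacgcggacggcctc
Ciart (chr3:95882229-95882478, minus strand, E-boxes at 116 to 111, 58 to 53 and 44 to 39 bases before the start): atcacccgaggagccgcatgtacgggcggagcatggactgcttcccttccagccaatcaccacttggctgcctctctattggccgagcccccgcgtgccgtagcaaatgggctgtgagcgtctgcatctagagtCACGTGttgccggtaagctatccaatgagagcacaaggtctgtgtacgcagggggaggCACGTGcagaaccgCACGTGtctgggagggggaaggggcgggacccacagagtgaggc

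Neither TAGGTCA, the core of ROR and REV-ERB elements (2.61% of windows, searched on both strands), nor TGACGTCA, the cAMP response element (1.79% of windows), was found in a member's window. Outside the members, *Bhlhe41*, *Cipc* and *Tef* held an E-box, *Timeless* a D-box, *Arntl* and *Nfil3* the ROR element core, and *Hlf* the cAMP response element. These are matches of letters within short windows and were not tested for binding.

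Genes that are known to answer the signals that set a muscle clock were then listed mouse by mouse. Of 15 genes induced by glucocorticoids, *Per1* included, 0 passed the threshold in either direction, 3 lay above 0 and 12 below 0, and the median log2 fold change was -0.20. WT3 was the highest mouse for 11 of the 15, the member *Per1* among them, whereas 13.4% of all genes tested were highest in WT3. HET2 was the highest for 3 and the lowest for 6, against 23.2% and 24.1% of all genes tested. *Sgk1*, a kinase gene, was at 88.6, 57.4 and 94.7 CPM in HET1 to HET3 and at 81.3, 94.9 and 140.3 CPM in WT1 to WT3. *Pdk4* and *Zbtb16*, at the other end of the list, had log2 fold changes of 0.31 and 0.02. WT3 was also the deepest library. The part of these genes, and of depth, in the levels of the clock genes in WT3 was not tested.

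Of 9 genes that respond to temperature, 0 passed the threshold in either direction, 5 lay above 0 and 4 below 0, and WT3 was highest for 1, *Cirbp*. The ends of this list were *Hspa1b* and *Hspa1a* (log2 fold changes of 0.43 and 0.22) and *Hspa8* and *Hsp90aa1* (-0.12 and -0.06). Of 18 rhythmic output genes of muscle, 0 passed the threshold, 7 lay above 0 and 11 below 0, with a median of -0.12, and WT3 was highest for 7. Against this count and that of the temperature genes, 13.4% of all genes tested were highest in WT3. *Pdk4* and *Myod1* lay at the upper end (0.31 and 0.16) and *Mylk4* and *Pdp1* at the lower end (-0.41 and -0.30).

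Among 17 immediate early genes, 0 passed the threshold, 12 lay above 0 and 5 below 0, with a median log2 fold change of 0.31. *Fosb* and *Egr2* had the largest log2 fold changes (1.06 and 0.76) and *Nr4a1* and *Egr1* the lowest (-0.38 and -0.22). WT3 was the highest mouse for 4 of them and HET2 for 6, against 13.4% and 23.2% of all genes tested.

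Markers of fibers and of other cells were seldom highest in WT3. WT3 was the highest mouse for 0 of 8 slow fiber, 0 of 11 fast fiber, 0 of 15 macrophage, 0 of 15 fibroblast, 0 of 10 tenocyte and 0 of 15 endothelial markers, for 2 of 10 smooth muscle and for 1 of 8 adipocyte markers. It was the lowest for 4 of 15 endothelial, 2 of 15 fibroblast, 1 of 15 macrophage and 1 of 8 slow fiber markers, and for 0 of the other lists. Over all genes tested, 13.4% were highest and 12.1% lowest in WT3. None of these markers was at 0 in any mouse. Between genotypes, macrophage markers summed to 96.6 to 137 CPM in HET and 55.4 to 64.8 CPM in WT mice, with 5 of 15 past the threshold (*Adgre1*, *Csf1r*, *C1qa*, *C1qb* and *Lyz2*) and 14 above 0. Fibroblast markers summed to 2795 to 3919 CPM in HET and 1345 to 2163 CPM in WT mice, with 1 past the threshold (*Pi16*), and tenocyte markers to 408 to 732 CPM in HET and 132 to 323 CPM in WT mice, with 0 past it. In whole muscle, more cells of a type and more RNA per cell cannot be told apart, and the part of these cells in the clock gene levels was not tested.

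By the likeness of their centered profiles over the 6 mice, the 5 genes nearest to *Dbp* were *Fam107a*, *Gadd45g*, *Arrdc2*, *Arhgap33os* and *Jade2*, with root mean square differences of 0.23 to 0.30 on the log2 scale. *Gadd45g*, for example, was at 28.3, 13.5 and 18.7 CPM in HET1 to HET3 and at 19.4, 18.3 and 48.0 CPM in WT1 to WT3. Nearest to *Npas2* were *Lrrc3b*, *Sox4*, *Usp27x*, *Adamts4* and *Aplnr*, with differences of 0.15 to 0.17. Like *Npas2*, *Sox4* was lowest in WT3, at 7.35 CPM against 14.0 to 20.9 CPM in the other mice. These neighbors were chosen for their profiles, and their adjusted p for genotype lay above 0.5 in each case.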

How the data were processed

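Poly(A)-enriched RNA from soleus was sequenced as single-end reads, 1 library per mouse. The authors aligned reads with STAR (2.7.3a) to GRCm38.p6 and deposited raw counts per gene from featureCounts (2.0.3) in reverse-stranded mode. The authors also deposited a normalized signal, the raw count divided by a DESeq2 size factor per library (0.773 to 1.42); whole reads were recovered from 100% of its values (tolerance 0.001) and equaled the raw counts of the same genes. A count test on these reads, added after seeing the data, tested 13748 genes and called 20 higher and 1 lower in HET. A deposited table of the authors' own DESeq2 comparison (fold changes, standard errors, p-values and adjusted p-values) was not used. There were 0 columns of values per mouse without a sample.

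Raw counts were analyzed in R 4.3.3 with edgeR 4.0.16 (filterByExpr with a minimum count of 10, TMM factors, robust quasi-likelihood F test, genotype as the only term, two-sided). Benjamini-Hochberg adjustment was made over all 14696 genes tested, with a threshold of 0.05. The standard error is the log2 fold change over the square root of F, and intervals use its degrees of freedom. Log2 CPM for spread and order used a prior count of 2, and RPKM the exon bases of the count table. Motifs were searched on both strands as exact matches, and figures were drawn with matplotlib 3.10.9 under Python 3.11.15. The fits of the genotype difference (edgeR, DESeq2, limma-voom and the replicate block) were tested on simulated counts in which no mouse stood apart. The spread, order, likeness and motif steps were not part of that test. Alternatives were other scalings and filters, DESeq2 1.42.0, limma-voom (limma 3.58.1), a replicate block, dispersion without robust estimation, and leaving out single mice.

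The clock genes and the gene lists were chosen with earlier results of these data known. By rule, all 10 members were named with every value, with the detected other clock components, the genes past the threshold and the ends of the lists, and the 5 profiles nearest to *Dbp* and *Npas2*. Some genes that this rule names are not reported here. Cell marker lists are given by counts and sums only. The number of mice, 3 per genotype, limits the precision. The p-values weigh the genotype difference against the spread between these mice. Litters of single mice are not given in the sources used here, so differences between litters cannot be told apart from that spread. A two-sided exact permutation test of 3 against 3 cannot go below 0.1, so none was run on single genes. Replicate numbers were not taken as pairs.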

Additional observations from a re-analysis of the deposited data

How the results depend on the processing

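None of the 10 clock genes passed the threshold under any of the 16 alternatives, and under no alternative other than leaving out a mouse did one change direction. Of the recomputed fold changes, 150 kept their direction and side of the threshold and 10 reversed, each with a mouse left out. Over the 6 fits that each lacked a mouse, log2 fold changes ran from -0.067 to 0.15 for *Clock*, -0.83 to 0.45 for *Per1*, -1.08 to 0.63 for *Per2*, -0.58 to 0.17 for *Per3*, -0.049 to 0.17 for *Cry1*, -0.15 to 0.14 for *Cry2*, -0.22 to 0.28 for *Nr1d1* and -1.16 to 0.052 for *Dbp*; the cause was not tested. Their median ran from -0.30 to 0.11, above 0 only without WT3. With a mouse left out, 0 to 3 of the 10 members did not overlap, where 18.9% to 26% of all genes tested did not, so nothing is read from these counts. The counts over all genes moved far more. Against 21 genes higher and 1 lower in HET, there were 386 and 18 with no low count filter, 215 and 8 with DESeq2, 12 and 1 with limma-voom, 6 and 0 with non-robust dispersion, and 0 to 77 higher and 0 to 6 lower with a mouse left out, the upper ends being those without WT3; the cause was not tested. At an unadjusted p under 0.05 there were 2 members with no low count filter (6.94% of all genes tested), 1 without HET1 (8.41%), 1 without HET2 (8.88%), 2 without WT2 (7.92%), 2 with the replicate block (7.91%) and 0 under the others, DESeq2 (6.98%) and limma-voom (7.93%) included. Deviations of same-numbered mice correlated at 0.20, -0.01 and -0.03 for numbers 1, 2 and 3. Those of mice with unlike numbers correlated at -0.14 to 0.13. With so few mice, these values cannot show whether the replicate numbers mark pairs. With the replicate block, 114 genes were higher and 2 lower and 0 members passed. Depth limits *Per2* most, with as few as 26 reads in WT1.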

Other observations

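Genes of fasting and fat oxidation were also listed mouse by mouse. Of 17 genes of the feeding and fasting response, 0 passed the threshold in either direction (edgeR), 9 lay above 0 and 8 below 0, and HET2 and WT3 were each the highest mouse for 8 of them. Over all genes tested, 23.2% were highest in HET2 and 13.4% in WT3. *Pdk4*, which encodes the kinase that shuts off pyruvate dehydrogenase, was at 1285, 3661 and 682 CPM in HET1 to HET3 and at 727, 2216 and 1592 CPM in WT1 to WT3. *Angptl4*, an inhibitor of lipoprotein lipase, was at 7.43, 54.2 and 2.64 CPM in the HET mice and at 3.65, 15.6 and 4.17 CPM in the WT mice. HET2 was the highest for both, followed by WT2, and these were also the mice with the lowest *Per1* and *Per3*. WT3 came next for *Pdk4*, at 1592 CPM, and held the highest *Per1* and *Per3*. The part of feeding or fasting in the levels of the clock genes was not tested. *Angptl4* and *Pdk4* had log2 fold changes of 1.46 and 0.31 and *Mt1* of -0.31, and for each of these the genotypes overlapped.

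Of 8 adipocyte markers, 7 were highest in HET2, where 23.2% of all genes tested were highest. Their summed level was 657 CPM in HET2 against 319 to 526 CPM in the other mice. HET2 also held the highest *Nr1d1*, a gene expressed in fat as well as in muscle. WT3 came next in the summed adipocyte markers, at 526 CPM, but ranked only 4th for *Nr1d1*, at 126 CPM. The part of adipocyte RNA in the level of *Nr1d1* was not tested.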
